A study of Macaca mulatta with 24 samples.

Results

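Red blood cell genes were followed in the colon of rhesus macaques after total-body irradiation (TBI), in which all of the body is exposed at once. The 9 genes sought were HBB, HBA2, HBZ, HBQ1, ALAS2, AHSP, SLC4A1, EPB42 and HEMGN, and every probe that the array files name by one of these symbols was taken. Of these genes, 6 had a probe under their symbol, among 16094 genes with a symbol in all, and together they had 9 probes. HBZ, SLC4A1 and EPB42 had none under those names. All 9 probes were above background on at least 2 arrays and entered the fit. The set was chosen by the measured differences of globin probes between irradiated and control colon, so the differences from control given here are a description and no test.

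Each of 24 young-adult male animals gave 1 array, from a small amount of whole colon tissue out of a segment about 3 cm long. Colon tissue holds its own blood. The 4 controls received no radiation and were labelled day 4, and they are the only controls for every day. The gamma dose, from a cobalt source, was 6.7 Gy in some animals and 7.4 Gy in others, and colon was taken on day 4, 7 or 12, with 4 animals in each group on days 4 and 7 and 2 in each group on day 12. The day 12 groups are therefore the least precise, and the 6 comparisons with control share the same 4 arrays. In bulk tissue, fewer cells of a type and less RNA per cell cannot be told apart.

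Red blood cells carry oxygen on haemoglobin, a tetramer of alpha-type and beta-type globin chains that each hold a haem group. The chains are made in marrow precursors, and reticulocytes, the youngest circulating red cells, still carry globin mRNA for a short time after they leave the marrow. Marrow precursors are sensitive to radiation. Globin mRNA in a piece of gut is commonly read as a sign of blood in the tissue.

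Values are log2 signals relative to the 75th percentile of the same array, so that 1 unit is a 2-fold step. They compare samples for 1 probe and do not rank genes. In limma, a call needed a 2-fold or larger difference and an adjusted p under 0.05, with Benjamini-Hochberg adjustment over all 38214 probes fitted. The share of spots well above background ran from 66.7% to 85.0% across arrays, and no spot was saturated.

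HBB encodes the adult beta chain. Its brighter probe (A_01_P1671806) stood at 2.44, 2.17, 3.25 and 3.38 in the controls. On day 4 it read -2.30, -1.84, -4.51 and -3.89 after 6.7 Gy and -2.04, -2.86, -4.52 and -3.17 after 7.4 Gy. No irradiated array of day 4 came within 4 units of a control. On day 7 the values were -3.20, -3.90, -2.93 and -4.98 after 6.7 Gy and -5.28, -5.80, -5.05 and -6.14 after 7.4 Gy. The first and last of the 7.4 Gy arrays were not well above background. On day 12 they were -2.08 and -2.59 after 6.7 Gy and -1.58 and 1.14 after 7.4 Gy. The second 7.4 Gy animal was the highest of the 20 irradiated arrays, though still below every control.

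The HBB group means, from high to low, were 2.81 ± 0.60 in controls (SD, n = 4), -0.22 ± 1.92 on day 12 after 7.4 Gy (n = 2), -2.33 ± 0.36 on day 12 after 6.7 Gy (n = 2), -3.13 ± 1.27 on day 4 after 6.7 Gy (n = 4), -3.15 ± 1.03 on day 4 after 7.4 Gy (n = 4), -3.76 ± 0.91 on day 7 after 6.7 Gy (n = 4) and -5.57 ± 0.49 on day 7 after 7.4 Gy (n = 4). The day 12 groups did not overlap each other, but the 6.7 Gy day 12 values lay within the range of the 6.7 Gy day 4 group. The day 4 groups overlapped each other and the day 7 group at 6.7 Gy, while the day 7 group at 7.4 Gy lay below the other irradiated groups without overlap. The mean differences from control were, for 6.7 then 7.4 Gy, 61.5-fold and 62.1-fold (day 4), 94.7-fold and 333-fold (day 7), and 35.3-fold and 8.18-fold (day 12). The 333-fold value comes from a group with only 2 of 4 arrays well above background. Under the alternatives that difference ran from -8.44 to -6.05 on the log2 scale, so its size is uncertain. All 4 controls lay in array position 1. The irradiated arrays read in that position (both day 4, 6.7 Gy) averaged 4.88 below them, and the difference between irradiated and control arrays was -6.75 on the first scan day and -6.23 on the second. With position as a block, the day 4 difference after 7.4 Gy was -3.83, against -5.96 without it, and the days 7 and 12 could not be compared with control.

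**Figure D1:**
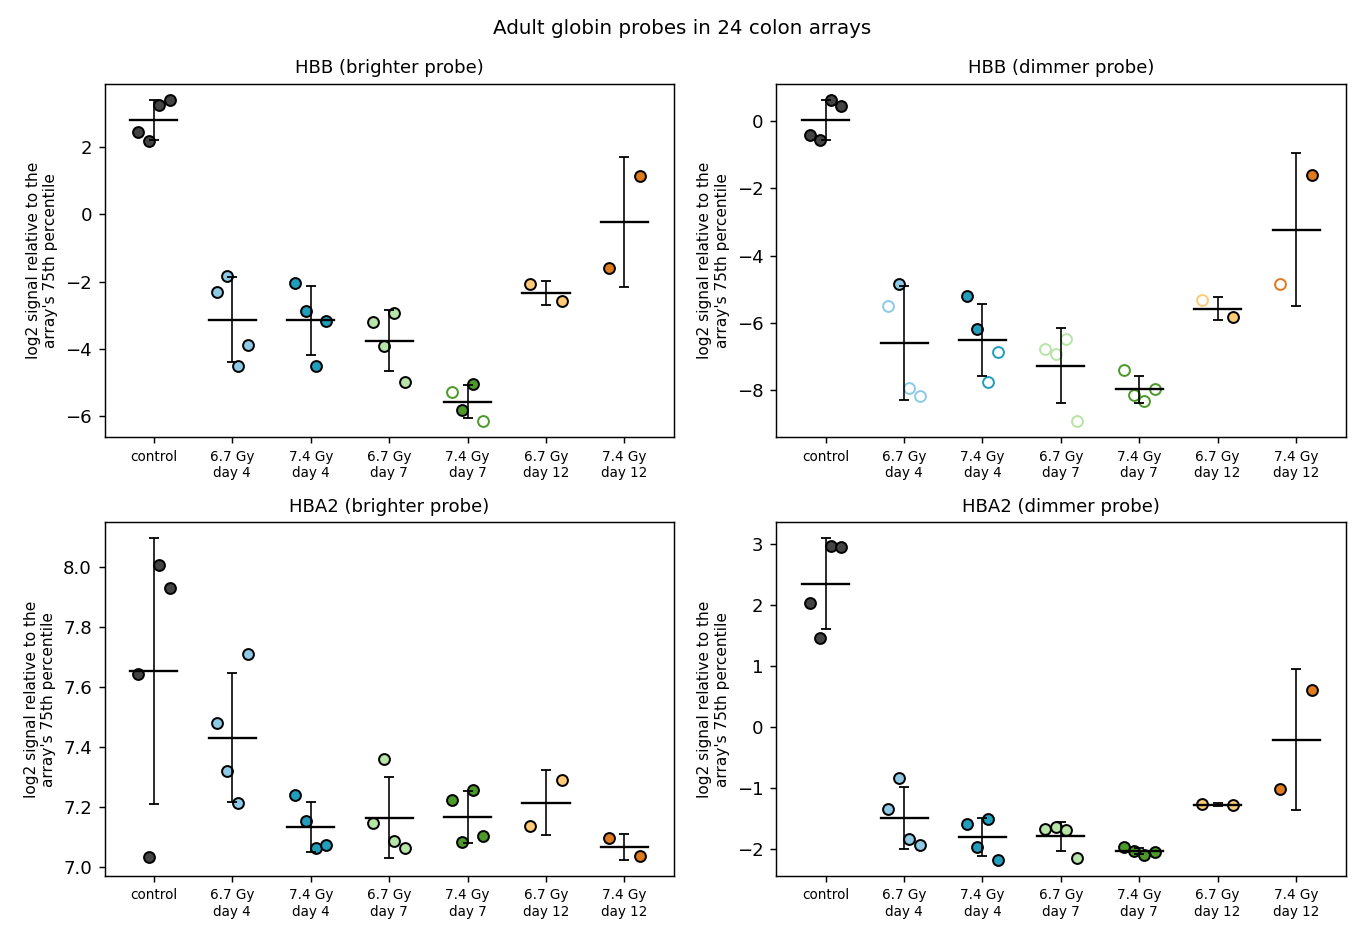
Log2 signal relative to the 75th percentile of the array for both HBB and both HBA2 probes, 1 point per array in the control group and the 6 dose-by-day groups; lines are means, bars are SD, and open points are arrays on which the probe was not well above background. HBB and the dimmer HBA2 probe are highest in the 4 controls, whereas the brighter HBA2 probe lies between 7.03 and 8.01 in all 24 arrays (its axis spans about 1 unit).

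A second HBB probe (A_01_P1726606) was well above background on 9 of 24 arrays: all 4 controls, 1 and 2 arrays of the day 4 groups, none on day 7 and 1 in each day 12 group. The controls read -0.41, -0.55, 0.64 and 0.46. On day 12 it read -5.33 and -5.82 after 6.7 Gy and -4.84 and -1.61 after 7.4 Gy, the last again the highest irradiated value. Against its day 7 groups, where it was dim on every array, the controls were at least 118-fold and at least 110-fold higher. These are bounds, computed from the lowest signal well above background on each array or the probe's own value where that was higher.

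HBA2 encodes an alpha chain, and its probes did not behave alike. The dimmer one (A_01_P1670786) was well above background on all 24 arrays and stood at 2.03, 1.46, 2.98 and 2.95 in the controls. The irradiated groups lay lower, with day 4 means of -1.49 ± 0.51 after 6.7 Gy and -1.81 ± 0.31 after 7.4 Gy (SD, n = 4). The day 7 means were -1.80 ± 0.24 and -2.04 ± 0.05 (n = 4), and those of day 12 were -1.28 ± 0.02 and -0.21 ± 1.16 (n = 2), in the same order of dose. Its 7.4 Gy day 12 animals read -1.03 and 0.61, and the higher value came from the same animal that stood out for HBB. No irradiated array reached a control.

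The brighter HBA2 probe (A_01_P000724) read between 7.03 and 8.01 over all arrays, and its differences from control lay between -0.22 and -0.59. It was called in no comparison. By its accession, this probe matches HBA1 in a current RefSeq gene table of the assembly T2T-MMU8v2.0, and the dimmer probe matches a gene named HBA there, although the array files call both HBA2. These genes are near-identical copies, so which transcripts each probe measures is uncertain. In that assembly HBZ, HBM, HBA, HBA1 and HBQ1 neighbour each other.

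For genes with more than 1 probe, the probes were compared over the 24 arrays. The HBB pair correlated at r = 0.98 over all arrays and r = 0.94 after group means were taken out. The HEMGN pair gave r = 0.92 and r = 0.75. The HEMGN probes were above background on 5 and 7 of 24 arrays, and the second HBB probe on 9. How far the r of these pairs rests on dim values that move with the array was not tested. The HBA2 pair gave r = 0.63 and r = 0.46, and the mean difference from control was -0.46 for the brighter and -3.79 for the dimmer probe, 3.33 units apart against a pooled SD of 0.44 for the difference between the probes. The dimmer HBA2 probe correlated with HBB at r = 0.94 over 24 arrays, 0.85 over the 20 irradiated ones and 0.69 within groups. These correlations are descriptions over arrays that share the control group.

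**Figure D2:**
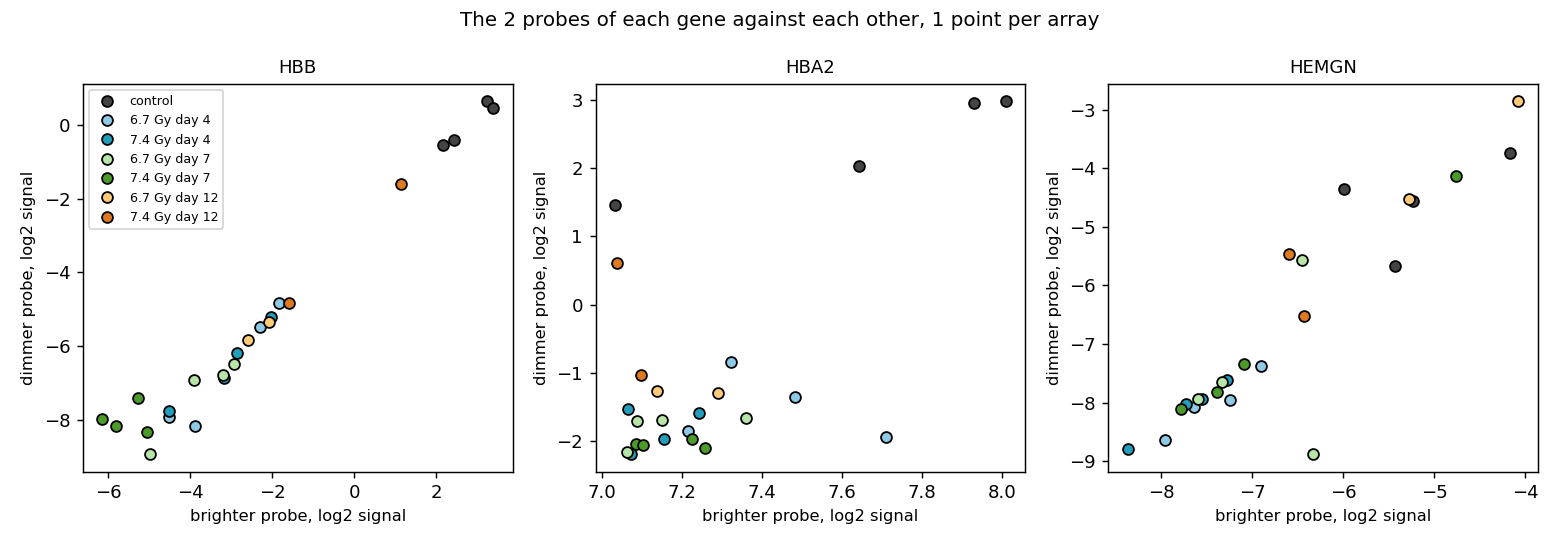
Log2 signals of the 2 probes of HBB, HBA2 and HEMGN plotted against each other, brighter probe on the horizontal and dimmer probe on the vertical axis, 1 point per array and coloured by group. HBB and HEMGN points follow a line (r = 0.98 and 0.92), whereas the HBA2 points do not (r = 0.63). Most values of both HEMGN probes and of the dimmer HBB probe were not well above background.

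HEMGN encodes hemogen, a nuclear protein of blood-forming cells. Its probes were dim, the more variable one (A_01_P004940) above background on 7 of 24 arrays. In the controls it read -5.68, -3.74, -4.36 and -4.57, the first of them not above background. On day 4 all 8 irradiated arrays were not above background, with values from -8.78 to -7.38. On day 7 a single array, after 7.4 Gy, was above background at -4.13. On day 12 it read -2.86 and -4.53 after 6.7 Gy and -6.52 and -5.47 after 7.4 Gy, and the 6.7 Gy arrays were thus within or above the range of the controls. The other HEMGN probe (A_01_P1791226), above background on 5 arrays, read -4.07 and -5.27 on day 12 after 6.7 Gy against -4.17 to -5.99 in the controls.

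ALAS2 encodes the erythroid form of the first enzyme of haem synthesis. Its probe was above background on 4 of 24 arrays. These were 3 controls, at -3.95, -4.91 and -4.37, and 1 animal on day 4 after 7.4 Gy, at -4.54. The remaining control read -7.59, inside the range of the irradiated arrays (-9.22 to -6.97 apart from that animal), so control and irradiated arrays overlapped. Where no array of a group was above background, controls were at least 3.44-fold (day 4), 4.25-fold (day 7) and 1.72-fold (day 12) higher than after 6.7 Gy, and at least 2.92-fold (day 7) and 1.36-fold (day 12) higher than after 7.4 Gy.

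AHSP encodes the chaperone of free alpha chains, and HBQ1 encodes theta globin, an alpha-type chain of little known function. Both were above background on all 24 arrays. AHSP lay between -1.70 and -0.55 and HBQ1 between -0.33 and 0.84, with control ranges of -1.43 to -0.62 and 0.08 to 0.82. Their differences from control, -0.38 to -0.01 for AHSP and -0.47 to 0.12 for HBQ1, were called in no group. A probe named only by a LOC number belongs to EPB42, a protein of the red cell membrane skeleton, by its gene number in the RefSeq table. It is no member by symbol. It was above background on 14 of 24 arrays and differed from control by -0.14 to 0.45, with no call.

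**Figure D3:**
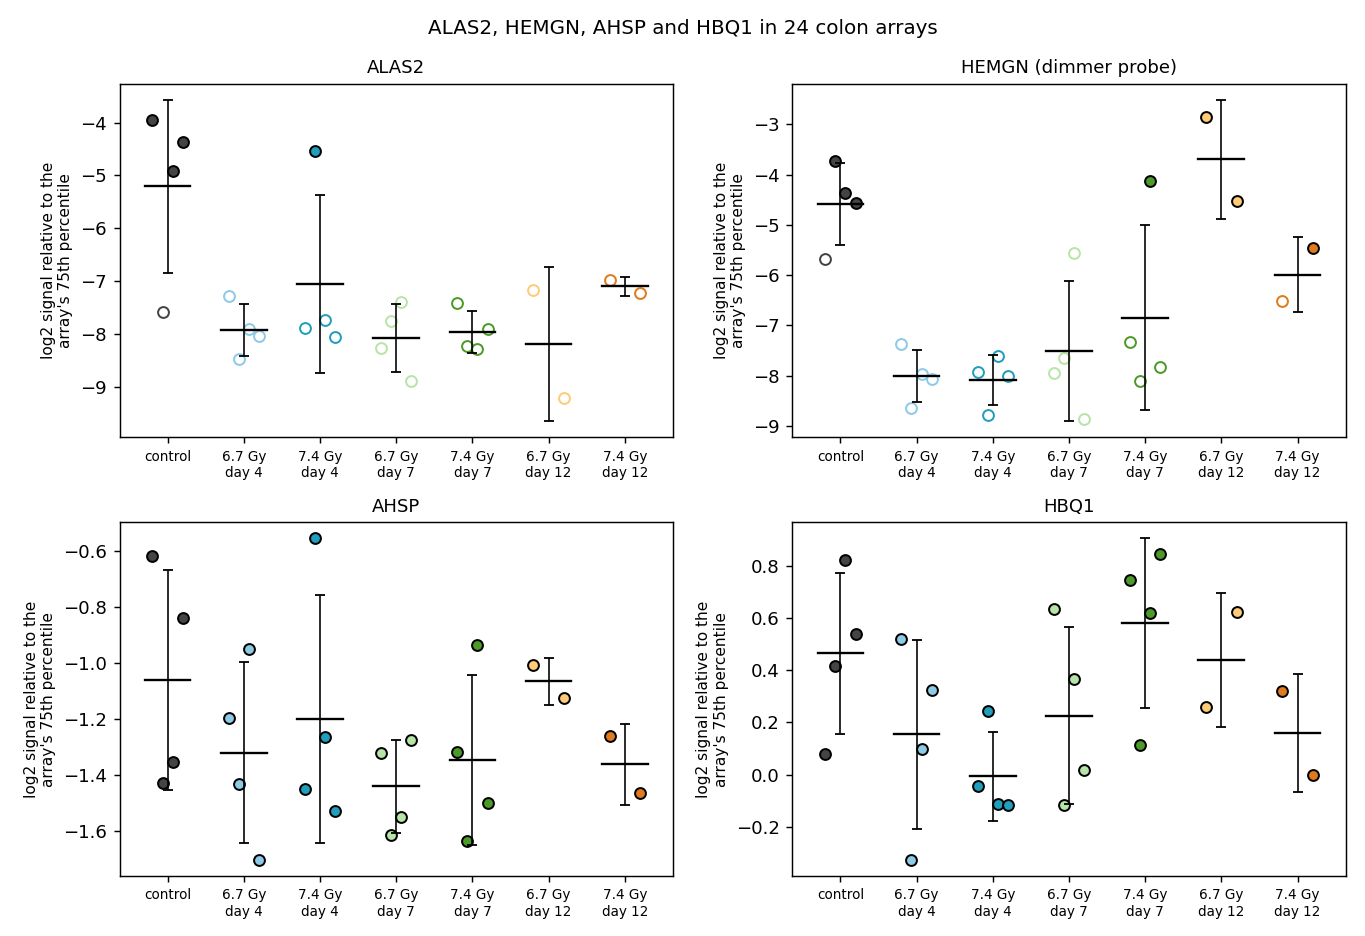
Log2 signal relative to the 75th percentile of the array for ALAS2, the dimmer HEMGN probe, AHSP and HBQ1, 1 point per array by group; lines are means, bars are SD, and open points are arrays on which the probe was not well above background. ALAS2 is above background on 4 arrays and HEMGN on 7, while AHSP and HBQ1 are above background on all 24.

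Against control, 6 of the 9 probes were called lower on day 4 after 6.7 Gy (HBB, HEMGN, the dimmer HBA2 probe and ALAS2, the background over all probes being 1.77% lower) and 5 after 7.4 Gy (the same without ALAS2, background 3.66%). On day 7 the 3 called at either dose were both HBB probes and the dimmer HBA2 probe (backgrounds 0.22% and 0.259%). On day 12 these 3 were called after 6.7 Gy (background 0.0105%), and the dimmer HBA2 probe alone after 7.4 Gy (background 0.0157%). These counts follow from the choice of the genes.

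The remaining questions were how the genes moved between days and between doses. These differences are between irradiated groups, but the controls share in the estimate of the spread. From day 4 to day 7, with both doses together, HBB fell by 1.52 on the log2 scale (SE 0.457, 2.87-fold lower, limma adjusted p = 0.0194), and it was the only one of the 9 probes called. Over all probes 2.06% were called lower and 2.37% higher. The 8 day 7 arrays overlapped the 8 day 4 arrays. The difference was -0.38 among arrays of the first scan day (4 of day 7, 2 of day 4) and -1.96 among those of the second (4 and 6). The second HBB probe, dim on all day 7 arrays, was at least 1.18-fold lower without a call (adjusted p = 0.156), with 0.54 on the first scan day and -1.68 on the second, while the dimmer HBA2 probe differed by -0.27 (adjusted p = 0.442). With normexp background correction the HBB difference was -0.63 and lost the call (adjusted p = 0.128), as it did with the methods' t-test (adjusted p = 0.0617).

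From day 7 to day 12 HBB rose by 3.38 (SE 0.560, 10.4-fold, adjusted p = 0.0134), and the 4 day 12 arrays lay above all 8 day 7 arrays. It was again the only probe called, where 0.0811% of all probes were called higher and 0.0366% lower. The second HBB probe was at least 5.28-fold higher (adjusted p = 0.0511, not called). The dimmer HBA2 probe was 1.18 higher without overlap (adjusted p = 0.130) and the dimmer HEMGN probe 2.33 higher with overlap (adjusted p = 0.183), neither of them called. Without replicate 3 of the 7.4 Gy day 7 group that HEMGN probe was called (2.79, adjusted p = 0.0209). The HBB call rested on single animals: it was lost without replicate 1 of the 6.7 Gy day 12 group (3.26, adjusted p = 0.105) and without replicate 2 of the 7.4 Gy day 12 group (2.70, adjusted p = 0.1004). It was also lost with array position as a block (3.42, adjusted p = 0.286) or scan day (3.04, adjusted p = 0.0700), while the difference was 3.47 among arrays of the second scan day and 4.32 among those of position 4. Fitted to the compared arrays alone, without the controls, it missed the threshold (adjusted p = 0.0693).

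From day 4 to day 12, 4 of the 9 probes rose, both of HBB and both of HEMGN, against 3.83% of all probes called higher and 2.68% lower. HBB was 1.86 higher (SE 0.560, adjusted p = 0.0208) by its brighter and 2.16 higher (SE 0.662, adjusted p = 0.0231) by its dimmer probe, in both cases with overlap. HEMGN, dim on all 8 day 4 arrays, was at least 4.05-fold higher (adjusted p = 0.00158) and at least 2.34-fold higher (adjusted p = 0.00381) by its 2 probes, without overlap. With normexp the second of these differences was 0.94, under 2-fold, and its call was lost. The dimmer HEMGN probe averaged -3.70 on day 12 after 6.7 Gy and -5.99 after 7.4 Gy, and the brighter one -4.67 and -6.51. After 7.4 Gy the brighter one was above background on 0 of 2 day 12 arrays, so its lack of overlap there sets dim values against dim values. The dimmer HEMGN probe was above background on 1 of these 2 arrays. On the other it read -6.52, so for that array its lack of overlap has the same limit. The dimmer HBA2 probe was 0.91 higher (adjusted p = 0.0287), short of 2-fold. Without replicate 1 of the 6.7 Gy or replicate 2 of the 7.4 Gy day 12 group the HBB value was 1.73 (adjusted p = 0.0824) or 1.18 (adjusted p = 0.166), and with only the compared arrays fitted the call was lost as well (adjusted p = 0.0696). Among arrays of the second scan day the HBB difference was 1.51. The day 4 arrays lay in positions 1 and 2 and those of days 7 and 12 in positions 3 and 4, so day and position cannot be told apart here or for day 7 against day 4.

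**Figure D4:**
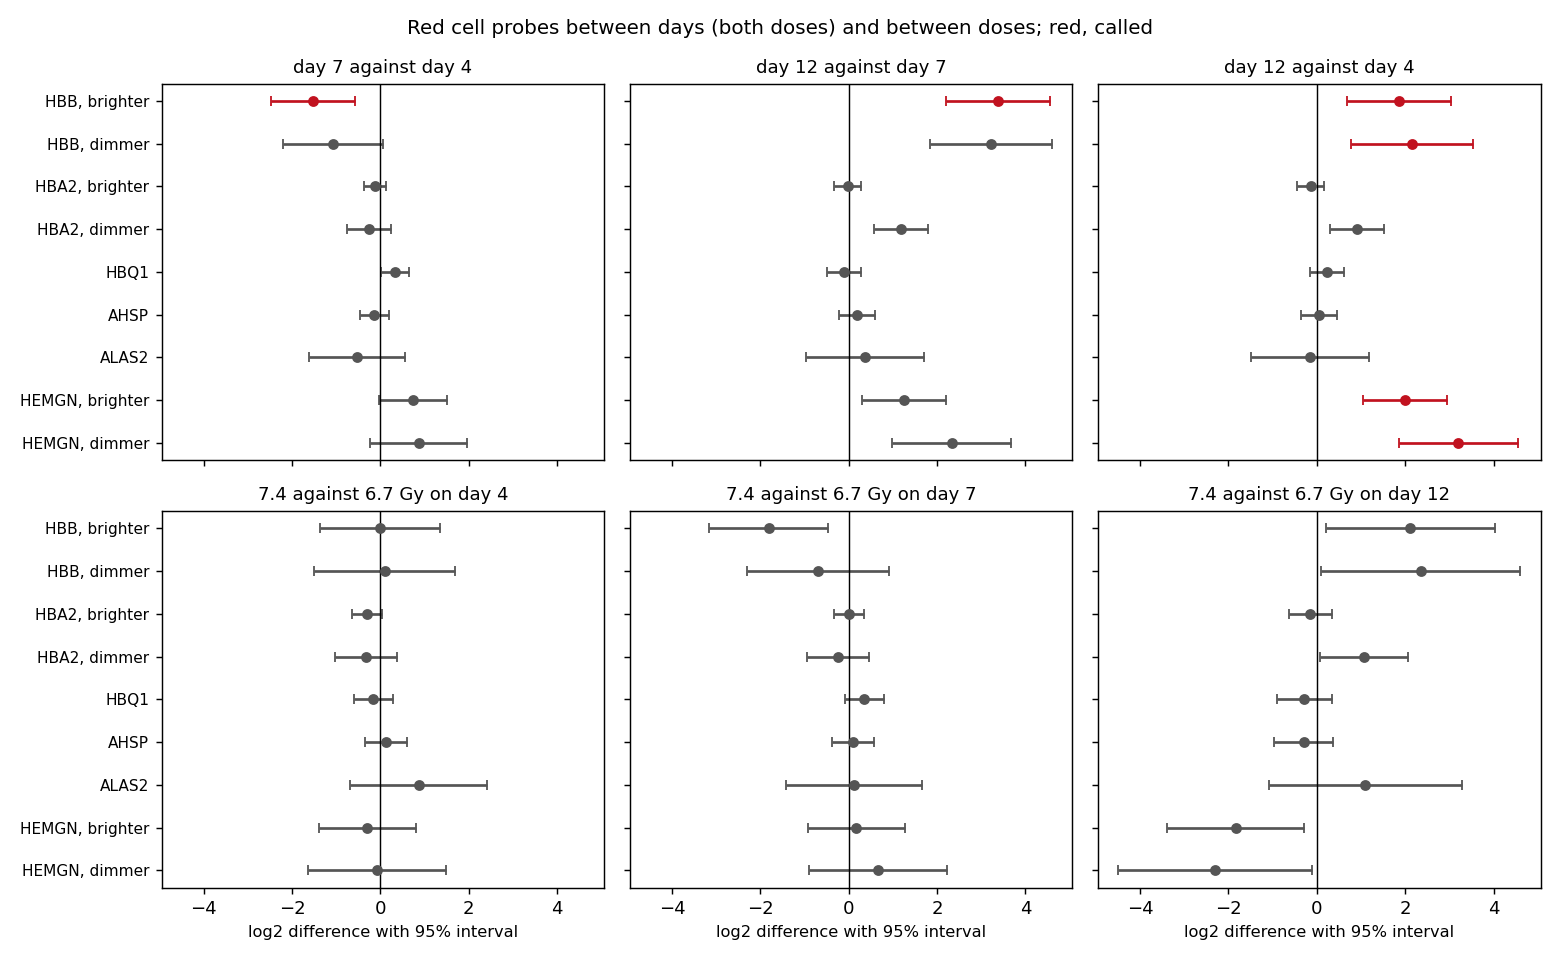
Differences in log2 signal with 95% intervals for the 9 probes of the 6 genes, in the 3 comparisons between days over both doses (top) and the 3 comparisons of 7.4 with 6.7 Gy (bottom); red points were called. The brighter HBB probe is lower on day 7 than on day 4 and higher on day 12 than on day 7, HBB and HEMGN are called higher on day 12 than on day 4, and no dose difference is called.

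Between doses no probe of the 6 genes was called on any day by limma, and none of all 38214 probes was called either. Among the 9 probes, 0 on day 4, 1 on day 7 and 5 on day 12 had an unadjusted limma p under 0.05. Of all probes, 6.18%, 1.86% and 3.63% did. The 5 were both HBB probes and the dimmer HBA2 probe, higher after 7.4 Gy, and both HEMGN probes, lower after 7.4 Gy. With the methods' t-test 1, 1 and 0 of the 9 probes had an unadjusted p under 0.05, and 0 were called. On day 4 the HBB difference, 7.4 minus 6.7 Gy, was -0.01 (95% interval -1.36 to 1.34). Under the alternatives that day 4 difference ran from -0.44 to 1.05. The 6.7 Gy arrays read -2.30 and -1.84 in array position 1 on the second scan day, and -4.51 and -3.89 in position 2 on the first. All 7.4 Gy arrays of day 4 lay in position 2 on the second scan day, so dose was partly mixed with position and scan day. On day 7 the HBB difference was -1.81 (-3.16 to -0.46) and the groups did not overlap. After 7.4 Gy only 2 of the 4 day 7 arrays were well above background, and under the alternatives the day 7 difference ran from -1.94 to -0.65. On day 12 it was 2.11 (0.20 to 4.02), again without overlap, but with 2 animals a group. Adjusted p-values were 0.9992, 0.99999 and 0.9989. The second HBB probe was dim on all day 7 arrays and on 1 of 2 arrays in each day 12 group, and was not called.

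On day 12 the dimmer HBA2 probe differed by 1.07 (0.07 to 2.07), with no call. Both HEMGN probes were above background on both 6.7 Gy arrays of that day, and on 1 and 0 of the 2 arrays after 7.4 Gy. Neither was called, and their dose differences depended on the background correction: with normexp they were -0.06 for the dimmer and 0.41 for the brighter probe, the latter with its sign turned from -1.84. The change of the HBB dose difference from day 7 to day 12 was 3.92 (SE 1.12, adjusted p = 0.99993), and from day 4 to day 7 it was -1.80 (SE 0.915, adjusted p = 0.995). No member was called by limma in either (0% and 0.00262% of all probes were). Of the 9 probes, 5 and 0 had an unadjusted limma p under 0.05, against 2.96% and 4.05% of all probes. The 5 were the same probes as for the dose difference on day 12, with HEMGN again opposite in sign to HBB and HBA2.

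Other genes of the red cell were taken as lists. Of the other globins and related haem proteins 6 could be tested (HBE1, HBG2, HBM, MB, CYGB and NGB), and 0 were called by limma in any of the 14 comparisons, with 10 of the 84 tests at an unadjusted p under 0.05. The 84 tests share arrays and no like share over all genes was taken, so whether 10 is many was not tested. Of 10 other haem synthesis genes, FECH, which inserts the iron into haem, rose on day 4 after 6.7 Gy (1.20, SE 0.282, adjusted p = 0.0128), where 2.36% of all 13460 named genes were called higher, and the rest were not called. Of 9 erythroid regulators, GATA1, a transcription factor of red cell precursors, rose from day 4 to day 12 (1.14, adjusted p = 0.00613), where 4.13% of named genes were called higher, and no other was called. Of 10 genes for haem and iron handling, SLC40A1, the iron exporter, rose on day 4 after 7.4 Gy (1.07, adjusted p = 0.00877), where 4.23% of named genes were called higher. HMOX1, the haem-degrading oxygenase, lay between -0.52 and 0.83 of control, and HP, the haemoglobin-binding plasma protein haptoglobin, between -0.16 and 0.17, with no call. ALAS1, the housekeeping form of the first haem enzyme, was 0.44 and 0.66 units below control on day 4, short of 2-fold.

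Of 16 other red cell membrane and enzyme genes, 2 were lower and 1 higher on day 4 after 6.7 Gy and 4 lower and 1 higher after 7.4 Gy, where 1.89% and 3.99% of named genes were called lower. From day 4 to day 7, 3 rose and 1 fell (2.65% and 2.39% of named genes), and from day 4 to day 12, 3 rose and 2 fell (4.13% and 3.51%). The genes that rose were CA1, CA2 and XK both times, and ICAM4 was among those that fell. The next differences, of CA1, CA2, ICAM4, XK and BSG, are those of day 4 against control, for 6.7 then 7.4 Gy. CA1, carbonic anhydrase 1, is an enzyme of red cells that the colon epithelium also makes in quantity. It fell by 6.05 and 7.46 (limma adjusted p = 0.00129 and 5.91e-05). CA2, also of the epithelium, fell by 2.69 after 7.4 Gy (adjusted p = 0.00108). ICAM4, a red cell adhesion molecule, rose by 1.92 and 3.07 (adjusted p = 0.0144 and 0.000222). XK, a membrane protein of the Kell complex, fell by 1.25 and 1.16 (adjusted p = 0.0274 and 0.0228), and BSG, the Ok blood group protein, which many tissues make, fell by 1.35 after 7.4 Gy (adjusted p = 0.000397). From day 4 to day 12, SLC2A1, a glucose transporter, also fell, by 1.06 (adjusted p = 0.0097).

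CA1 averaged 0.93 in controls and returned to -0.17 and -1.93 on day 7 and to 1.22 and 0.93 on day 12, so it rose from day 4 to day 7 (4.78, adjusted p = 0.000102) where HBB fell. Of 7 colon epithelium genes, 4 and 5 were called lower on day 4 (1.89% and 3.99% of named genes) and 5 rose from day 4 to day 7 (2.65%). The list had a mean log2 signal of 4.37 to 4.69 in the controls, 2.74 to 3.72 and 1.78 to 3.30 on day 4, 4.47 to 4.55 and 3.99 to 4.51 on day 7, and 4.67 to 4.77 and 4.48 to 4.63 on day 12. On day 7, when HBB was low at both doses, no gene of the epithelial list was called against control by limma. Few named genes were called then at all (0.223% and 0.29% lower, 0.163% and 0.208% higher), so a list without a call is near those shares. Lymphocyte lists were low on day 7 too: the median difference from control was -1.04 and -1.47 over 5 B lymphocyte genes and -1.03 and -0.88 over 7 T lymphocyte genes, against -0.02 and 0.00 over all named genes. The mean B lymphocyte signal ran from -4.49 to -0.59 in the controls and from -4.63 to -3.09 on day 7, with overlap. Neither list held a call against control on that day by limma. From day 4 to day 7, 1 gene of each list fell, where 2.39% of named genes were called lower. On day 12, when HBB was higher, the medians were -0.23 and -0.82 for B and -0.92 and -0.50 for T lymphocyte genes, without a call. Of 4 platelet genes, PF4, a platelet chemokine, rose on day 4 (3.25 and 3.78, adjusted p = 0.0192 and 0.00387), while PPBP, ITGA2B and GP9 were not called, with differences from -0.59 to -0.31. The platelet medians on day 4 were -0.37 and -0.52. The part of other cell types in the HBB result was not tested.

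The 5 named genes outside the list with the levels most like HBB over the 24 arrays, by Pearson's r, were SERPINA2 (0.90), FOXO3 (0.84), CLEC9A (0.81), PBX2 (0.79) and C7H15orf39 (0.77). Over the 20 irradiated arrays alone they gave 0.65, 0.52, 0.72, 0.56 and 0.71. SERPINA2 averaged 1.23 in controls and between -1.81 and -0.51 in the irradiated groups. CLEC9A, a receptor of dendritic cells, was above background on 14 of 24 arrays. It averaged -2.81 in controls and was lowest on day 7 after 7.4 Gy, at -7.58, as HBB was. PBX2 (-0.98) and C7H15orf39 (-1.19) were lowest in that group too, while SERPINA2 was lowest on day 4 after 7.4 Gy. The 5 genes were picked by their r with HBB over these same arrays, so a shared lowest group follows in part from that choice.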

How the data were processed

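Gene expression was measured on 1-colour (Cy3) Agilent rhesus arrays, 1 array per animal. Per the file headers, the authors extracted each spot's intensity with Feature Extraction 11.0.1.1, whose processed signal is background-subtracted but not normalized between arrays. The authors' deposited raw table holds the same intensities, and their deposited normalized table holds log2 values, shifted by 1 constant per array and centred per probe, which served as an alternative. One label gives another last day than the sample labels, which were followed. Replicates are separate animals.

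Control spots were left out and outlier spots (24 to 712 per array) set to missing. Each array's 75th percentile was taken off its log2 signals before testing. Of 43603 probes, 38234 were well above background on at least 2 of 24 arrays and 38214 could be fitted. Names came from the files for 18640 probes and from a RefSeq table (T2T-MMU8v2.0, names only) for 3184 by gene number and 84 by accession; 1850 had a LOC number only and 19845 none.

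One mean per group was fitted in limma 3.58.1 under R 4.3.3 (lmFit, eBayes) to all 24 arrays, with two-sided p-values and Benjamini-Hochberg adjustment per comparison; the script was tested on simulated data. Arrays lay on 6 slides in 2 scan days. Every probe of a member is named. For the lists, the brightest probe stood for a gene, and genes called at least once or with an obvious role (HMOX1, HP, ALAS1, CA1) are named. The genes and lists were chosen with earlier results of these data known. The study measured HBB and HBA2 by PCR in the same colon RNA and reported both as lower after irradiation. The alternatives were other scaling, normexp on the median spot signal, filters, blocks, samples, the methods' t-test, and leaving out each array. The number of arrays limits the precision.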

Additional observations from a re-analysis of the deposited data

Results flagged for a closer look

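Of 50 combinations of a probe and a group of 4 animals, 3 held an animal far from the other 3, about what chance gives at 1 in 20. ALAS2 on day 4 after 7.4 Gy read -4.54 in replicate 2, against -8.06 to -7.74 in the others. The dimmer HBA2 probe on day 7 after 6.7 Gy read -2.16 in replicate 4, against -1.70 to -1.65. The EPB42 probe read -6.88 in control replicate 1, against -4.85 to -4.69.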

How the results depend on the processing

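Under the alternatives, HBB and the dimmer HBA2 probe kept their direction against control and from days 4 and 7 to day 12, and no called value reversed. The HBB rise from day 7 to day 12 was not called with slide (3.04, adjusted p = 0.0588), scan day (3.04, 0.0700), array position (3.42, 0.286) or the replicate block (3.09, 0.104), with array position and scan day together (3.04, 0.914, chosen after seeing the data), with only the arrays compared (3.38, 0.0693) or with the methods' t-test (3.38, 0.223); each of these called 0 member probes there, against 3 with spike-in scaling, 2 with normexp and 2 with a filter at 4 arrays. Over all probes, spike-in scaling called 80 from day 7 to day 12 and normexp 62, against 45 in the main fit. The HBB rise from day 4 to day 12 was not called with the replicate block (1.57, adjusted p = 0.0758) or only the arrays compared (1.86, 0.0696). The t-test did not call it either (1.86, adjusted p = 0.116), and each of these called 2 member probes. From day 4 to day 7, normexp (-0.63) and the t-test (-1.52) called 0 member probes, and normexp called 747 of all probes against 1695 in the main fit. Against control, 7.4 Gy day 12 gave 3 with normexp and 0 with slide, the replicate block, only the arrays compared and the t-test; 6.7 Gy day 12 gave 0 with only the arrays compared and with the t-test, and 6.7 Gy day 7 gave 0 with the t-test. The 7.4 Gy day 4 count was 3 with array position and 1 with position and scan day together, where HBB was -4.28 and the dimmer HBA2 probe -4.09. Normexp called 1 member probe for 7.4 against 6.7 Gy on day 12, with 33 of all probes called against 0 in the main fit. For 7.4 Gy day 12 against control it called 98 of all probes, against 10. It put the HBB probes 1.27 apart in their mean change. Leaving out each array gave 3 to 5 for 7.4 Gy day 7, 1 to 3 for 6.7 Gy day 12, 0 to 1 for 7.4 Gy day 12, 0 to 3 from day 7 to day 12 (HBB 2.70 to 4.06) and 2 to 5 from day 4 to day 12 (HBB 1.18 to 2.54). Apart from normexp and spike-in scaling, these member counts are given without the count over all probes. The causes of the changed counts were not tested. With the array position block, day 7 and day 12 could not be compared with control or day 4. Spike-in scaling put the median of all probes at 0.09 to 0.31 against control, and normexp at -0.18 to 0.29. Few arrays above background limit ALAS2, HEMGN and the second HBB probe. Replicate numbers only name animals: deviations from the group means correlated at -0.229 to 0.236 (median 0.00386) over 62 same-numbered pairs of different groups, so the replicate block pairs nothing known.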
